A study of Mus musculus with 12 samples.

Results

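Eribulin-resistant cells of the mouse breast cancer line PB3 were compared with paclitaxel-resistant cells of the same line. The comparison takes the 3 libraries labelled PB3-ERI-R (ERI-R) and the 3 labelled PB3-PAC-R (PAC-R), 6 of the 12 libraries in the series, chosen by the line that the labels name. The other 6 libraries, 3 of the untreated parental line (Control) and 3 of a vinorelbine-resistant derivative (VIN-R), served to estimate the spread and to show on which side of the parental level a difference lay. The labels describe PB3 as Er-/Pr-/Her2-, which refers to the estrogen and progesterone receptors and to HER2. The sample titles of ERI-R spell the drug Erubilin, and the protocol spells it Eribulin. Each derivative was obtained with its drug at 300, at 500 and at 800 nM, and the labels speak of resistant clones without giving their number, the dose or presence of drug at harvest, or whether replicates were separate cultures. The p-values below therefore measure the spread between these libraries, which may be technical. Polyadenylated RNA was sequenced, and the authors' expected counts per gene are given as CPM, counts scaled to a common library size after TMM normalisation.

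Eribulin and paclitaxel both act on microtubules, the polymers of alpha- and beta-tubulin that form the mitotic spindle. Eribulin binds at growing microtubule ends and blocks their growth, while paclitaxel binds along the polymer and stabilises it, and both stop cells in mitosis. P-glycoprotein, a membrane pump encoded in the mouse by Abcb1a and Abcb1b, exports both drugs, and changes in tubulin isotypes and microtubule-binding proteins are other known routes to resistance. Breast cancer cells also move between an epithelial state, with E-cadherin junctions and keratins, and a mesenchymal state, with vimentin, N-cadherin and a secreted matrix. The transcription factors of the Zeb, Snai and Twist families repress junction genes in the mesenchymal state, and factors of the Grhl, Ovol and Esrp families support the epithelial one.

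The 6 libraries held between 11141028 and 13347836 expected counts, so that 3 counts, used here as the floor, corresponded to between 0.224 and 0.316 CPM. In each line replicates 1 and 2 contained macrophage transcripts and replicate 3 did not. Lyz2, the lysozyme of macrophages, stood at 354, 233 and 0 CPM in ERI-R 1 to 3 and 1401, 509 and 0 CPM in PAC-R 1 to 3. The 16 macrophage and leukocyte markers together summed to 1435, 940.2 and 167 CPM in ERI-R 1 to 3 and to 4849, 1878 and 42.6 CPM in PAC-R 1 to 3, and the sum in ERI-R 3 was mostly Cd14. Ribosomal protein genes took 15.98% of the counts of ERI-R 3, 8.52% of PAC-R 3 and between 3.75% and 5.01% of the other 4. The log2 CPM of ERI-R 3 correlated across the 14226 genes tested at 0.737 and 0.779 with ERI-R 1 and 2, which correlated at 0.973 with each other. The presence of macrophage RNA entered the fit as a covariate. Markers of other cell types summed to between 0.0747 and 2.397 CPM per library for lymphocytes, 11.1 and 59.6 CPM for fibroblasts, 0.598 and 27.8 CPM for erythroid, adipocyte and muscle cells, and 0.842 and 103.9 CPM for endothelium and pericytes. The fibroblast sum was highest in ERI-R 1, the lymphocyte and erythroid list sums in PAC-R 1 and the endothelial sum in PAC-R 2, where it was mostly Rgs5. The defining genes Cd3e of lymphocytes, Cldn5 of endothelium, Dpt of fibroblasts and Hbb-bs of erythroid cells had no counts in either line. The simple-epithelial keratin Krt18 was present in all 6 libraries, at 123 CPM or more. Erbb2, which encodes HER2, had a mean of 40.04 against 28.4 CPM and Esr1 of 9.41 against 10.5 CPM in ERI-R and PAC-R, while Pgr, the progesterone receptor, was higher in ERI-R (5.47 against 0.376 CPM, log2 fold change 4.14, adjusted p = 0.0126). Erbb2 and Esr1 were not called (adjusted p = 0.114 and 0.689).

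Of 14226 genes tested with edgeR's quasi-likelihood test, 4176 (29.4%) differed between the lines at a Benjamini-Hochberg adjusted p under 0.05. ERI-R was higher for 1982 of them (13.9% of the genes tested) and lower for 2194 (15.4%). With library totals alone as the scale, 2227 genes were higher and 1644 lower, and the median log2 fold change of all genes moved from -0.06 to 0.06. A fold of at least 2 in addition left 3510 genes (24.7%), 1719 higher and 1791 lower. The 3 libraries of one line lay entirely above the 3 of the other for 4174 of the genes tested (29.3%), and 3403 of these were called. Without the covariate, 2667 genes were called, 1308 higher and 1359 lower. In every log2 fold change below, ERI-R is set against PAC-R, so that positive values are higher in ERI-R, and "called" means past the adjusted threshold. A lower level in a bulk library can come from fewer cells that express a gene or from less RNA per cell, and these cannot be told apart.

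The plot of calls per gene list shows the share of each list called in either direction beside the share over all genes. Lists of epithelial junctions, desmosomes, epithelial factors, proteases and basal keratins had most of their calls on the ERI-R side, while the simple-epithelial keratins had 3 calls there and 2 on the other. Lists of mesenchymal factors, matrix, collagens and targets of YAP and SRF had most of theirs on the PAC-R side. The dashed lines at 13.9% and 15.4% mark the shares over all genes tested. Where a list count below stands without a share, its comparison is the 29.4% called over all genes tested.

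**Figure D1:**
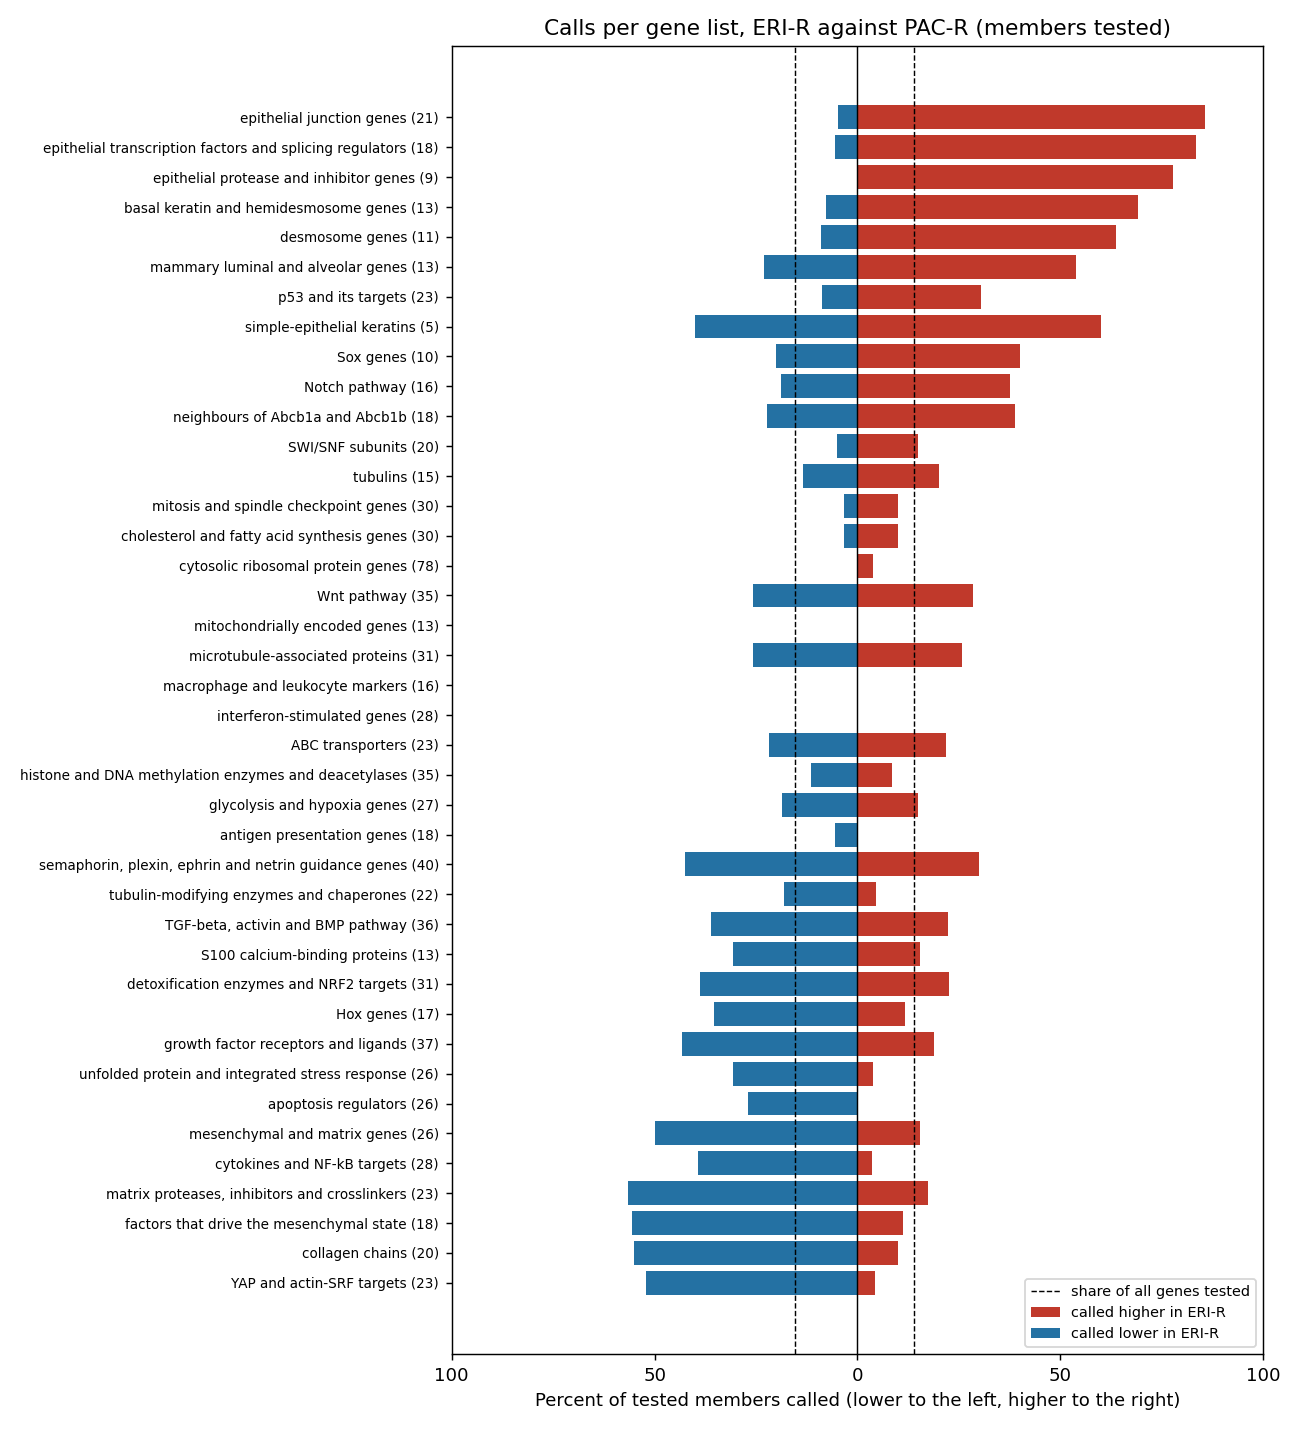
Percent of the tested members of each gene list with 5 or more of them called higher (red, right) or lower (blue, left) in ERI-R against PAC-R, with the number of members tested in brackets; dashed lines mark the shares over all 14226 genes tested. Epithelial junction genes reach 18 of 21 higher, and YAP and actin-SRF targets 12 of 23 lower.

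ERI-R expressed the genes of epithelial cell junctions at levels far above PAC-R. Of 25 listed junction genes 21 could be tested, and 18 were higher and 1 lower in ERI-R, with a median log2 fold change of 5.299 against -0.06 over all genes. Cdh1, which encodes E-cadherin, the adhesion protein of epithelial junctions, stood at 320.4, 297 and 94.4 CPM in ERI-R 1 to 3 and 6.42, 10.2 and 1.79 CPM in PAC-R 1 to 3. All 3 ERI-R libraries lay above all PAC-R libraries, with ERI-R 3 the lowest of its line. The means were 237 ± 124 CPM in ERI-R and 6.14 ± 4.21 CPM in PAC-R (SD, n = 3), a log2 fold change of 5.299 ± 0.64 (SE) at an adjusted p of 0.000227. Epcam, an epithelial adhesion protein, was even across ERI-R at 234, 244 and 228 CPM and low in PAC-R at 4.99, 6.74 and 0.224 CPM. Its log2 fold change was 6.09 (adjusted p = 0.000615), and 5.33 without PAC-R 3, the lowest library.

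Tight junction and polarity genes showed the same separation. Cldn7, a claudin of the tight junction, stood at 28.3, 45.8 and 117 CPM in ERI-R 1 to 3 and 0.384, 0.674 and 0 CPM in PAC-R 1 to 3, a log2 fold change of 7.32 (adjusted p = 0.0002405, 6.31 without PAC-R 3 and 6.72 without ERI-R 3). Crb3, a polarity protein of the apical membrane, had no counts in PAC-R and 1.37, 3.66 and 9.57 CPM in ERI-R 1 to 3, at least 57.9-fold higher against a floor of 3 counts over the PAC-R group. Its fitted log2 fold change, which depends on the prior count, moved from 8.801 to 8.16 without ERI-R 3 and to 8.14 without PAC-R 3, with adjusted p of 0.00416 and 0.00789. The other members called higher were Ap1m2, Lsr, Rab25, Marveld3, Ocln, Cdh3, Marveld2, Tjp3, Cldn3, Cldn4, Llgl2, Cgn, Cdcp1 and Patj. The junction genes Cldn1 and F11r had values of 1.16 and 0.404 and were not called.

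Desmosomes, which anchor keratin filaments at cell contacts, were higher in most of their genes. Of 11 tested members 7 were higher and 1 lower, with a median of 1.86, or 2.82 with the replicate number added as a block (the replicate block). Dsg2, the desmoglein of simple epithelia, stood at 115, 98.3 and 46.1 CPM in ERI-R 1 to 3 and 1.63, 3.12 and 0 CPM in PAC-R 1 to 3, with no overlap and a log2 fold change of 6.07 (adjusted p = 0.000382). Dsg3, a desmoglein of stratified epithelia, stood at 5.49, 7.02 and 1.68 CPM in ERI-R and had 2 counts in all of PAC-R, a ratio of 89.8 (95% counting interval 24.5 to 748). The other members called higher were Evpl, Dsp, Pkp3, Perp and Jup, and Dsp, the desmoplakin that ties keratins to the junction, reached means of 330.04 against 9.24 CPM. Dsc2, a desmocollin, went the other way, with 1 count in ERI-R and 2.21, 2.11 and 0.448 CPM in PAC-R (adjusted p = 0.00103, and 0.00613 without ERI-R 1, where the log2 fold change was -4.72 in place of -5.34). That of Dsg3 was 6.11, or 5.35 without PAC-R 2.

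Transcription factors and splicing regulators of epithelia were higher in 15 of 18 members and lower in 1, with a median of 5.92, or 5.33 without PAC-R 3. Elf5, the factor that directs mammary alveolar cells, stood at 19.4, 30.4 and 55.97 CPM in ERI-R 1 to 3 and 0.479, 0.169 and 0 CPM in PAC-R 1 to 3 (log2 fold change 7.36, adjusted p = 0.000257). Tfap2c, a factor of the mammary luminal program, was even in ERI-R at 107, 112 and 129 CPM and stood at 1.44, 2.11 and 0 CPM in PAC-R (7.19, adjusted p = 0.000417). Without PAC-R 3, where both were at 0, these values were 6.49 and 6.53, and without ERI-R 3 they were 6.44 and 6.17. Others called higher included the grainyhead factors Grhl1, Grhl2 and Grhl3, the repressors of mesenchymal factors Ovol1 and Ovol2, the splicing regulators Esrp1 and Esrp2, and Ehf, Elf3, Trp63, Tfcp2l1 and Foxa1. Gata3, a luminal factor, was the exception, at 16.001, 5.03 and 11.05 CPM in ERI-R 1 to 3 and 57.6, 49.98 and 82.6 CPM in PAC-R 1 to 3, a log2 fold change of -2.54 (adjusted p = 0.000733). Its libraries did not overlap, and PAC-R stood near Control (69.8 CPM).

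Membrane proteases of epithelia and their inhibitors were higher in 7 of 9 tested members and lower in none, with a median of 5.605. The median was 4.64 without ERI-R 3 and 4.44 in the 8 libraries with macrophage RNA. Prss8, the protease prostasin, stood at 13.6, 15.2 and 50.9 CPM in ERI-R 1 to 3 and 0.288, 0.337 and 0 CPM in PAC-R 1 to 3 (log2 fold change 6.79, adjusted p = 0.000218). St14, the protease matriptase, stood at 134, 170.04 and 340.1 CPM in ERI-R 1 to 3 and 2.301, 4.21 and 0.374 CPM in PAC-R 1 to 3 (6.603, adjusted p = 0.000355). Neither gene's libraries overlapped between the lines, and the values were 5.77 and 5.82 without PAC-R 3, and 6.06 for Prss8 without ERI-R 3. The inhibitors Serpinb5, Spint1, Spint2, Slpi and Wfdc2 were also called. Lcn2, a secreted iron carrier, had means of 1272 against 106 CPM but was not called (adjusted p = 0.0851).

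The promoters of these genes were read for a motif of the factors named above. The E-box CAGGTG, whose reverse complement is CACCTG, is the sequence that Zeb and Snai proteins bind, and both strands of the 250 bases before the transcription start were searched in RefSeq promoters on GRCm38.p6. The 4 junction, desmosome, factor and protease lists held 47 genes called higher, of which 28 had a promoter entry. Of these 28 genes, 20 (71.43%) held the E-box in at least 1 promoter, against 18.01% of 10310 genes tested with a promoter and 24.7% of 1494 genes called higher. Among genes called lower the share was 19.04% of 1628, and of 9 mesenchymal and matrix genes called lower with a promoter 0 held it. The grainyhead motif AACCGGTT was in 0 of the 28 and in 0.252% of the genes tested, which says only that these letters are not in the window. A match is a description of the sequence, and binding was not measured here. These lists were chosen with earlier results known, and share promoter features such as base composition that were not matched. The 4 promoters below, chosen after the motif counts were seen, are shown because each holds the E-box 2 or more times near the start, in genes that were higher in ERI-R. They run from 250 bases before the start to the base before it, 5′ to 3′ on the gene's strand, with the E-boxes in capitals. Crb3 lies at chr17:57061951-57062200 on the plus strand and Epcam at chr17:87635729-87635978 on the plus strand. Spint2, the inhibitor of matriptase and related proteases, lies at chr7:29281978-29282227 on the minus strand, and Ap1m2, the epithelial clathrin adaptor, at chr9:21312334-21312583 on the minus strand.
Crb3: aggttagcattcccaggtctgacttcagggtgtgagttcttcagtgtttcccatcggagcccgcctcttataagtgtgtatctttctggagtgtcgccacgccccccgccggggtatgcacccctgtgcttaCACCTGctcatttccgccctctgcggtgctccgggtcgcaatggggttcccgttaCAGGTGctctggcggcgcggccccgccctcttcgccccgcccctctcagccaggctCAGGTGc
Epcam: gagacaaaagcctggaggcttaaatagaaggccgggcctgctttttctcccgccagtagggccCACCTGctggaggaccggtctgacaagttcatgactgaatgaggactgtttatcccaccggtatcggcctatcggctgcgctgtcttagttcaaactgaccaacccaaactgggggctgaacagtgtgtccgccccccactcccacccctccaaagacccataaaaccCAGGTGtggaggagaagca
Spint2: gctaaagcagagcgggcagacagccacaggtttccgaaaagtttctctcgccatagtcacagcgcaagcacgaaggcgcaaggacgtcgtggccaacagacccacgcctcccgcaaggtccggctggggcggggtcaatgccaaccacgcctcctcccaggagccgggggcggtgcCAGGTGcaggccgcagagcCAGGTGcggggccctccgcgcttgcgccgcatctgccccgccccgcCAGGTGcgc
Ap1m2: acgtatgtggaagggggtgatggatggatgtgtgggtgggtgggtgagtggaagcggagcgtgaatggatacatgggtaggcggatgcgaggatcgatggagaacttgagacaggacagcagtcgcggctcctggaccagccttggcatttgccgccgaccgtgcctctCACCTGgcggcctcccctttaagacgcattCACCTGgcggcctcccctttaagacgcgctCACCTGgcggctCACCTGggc
The E-boxes begin 118, 63 and 7 bases before the start in Crb3, 187 and 19 in Epcam, 74, 55 and 9 in Spint2, and 81, 51, 21 and 9 in Ap1m2. In these genes the means were 151 against 20.6 CPM for Spint2 and 59.9 against 0.409 CPM for Ap1m2, with log2 fold changes of 2.86 and 7.32. All 3 ERI-R libraries lay above all 3 PAC-R libraries for both.

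**Figure D2:**
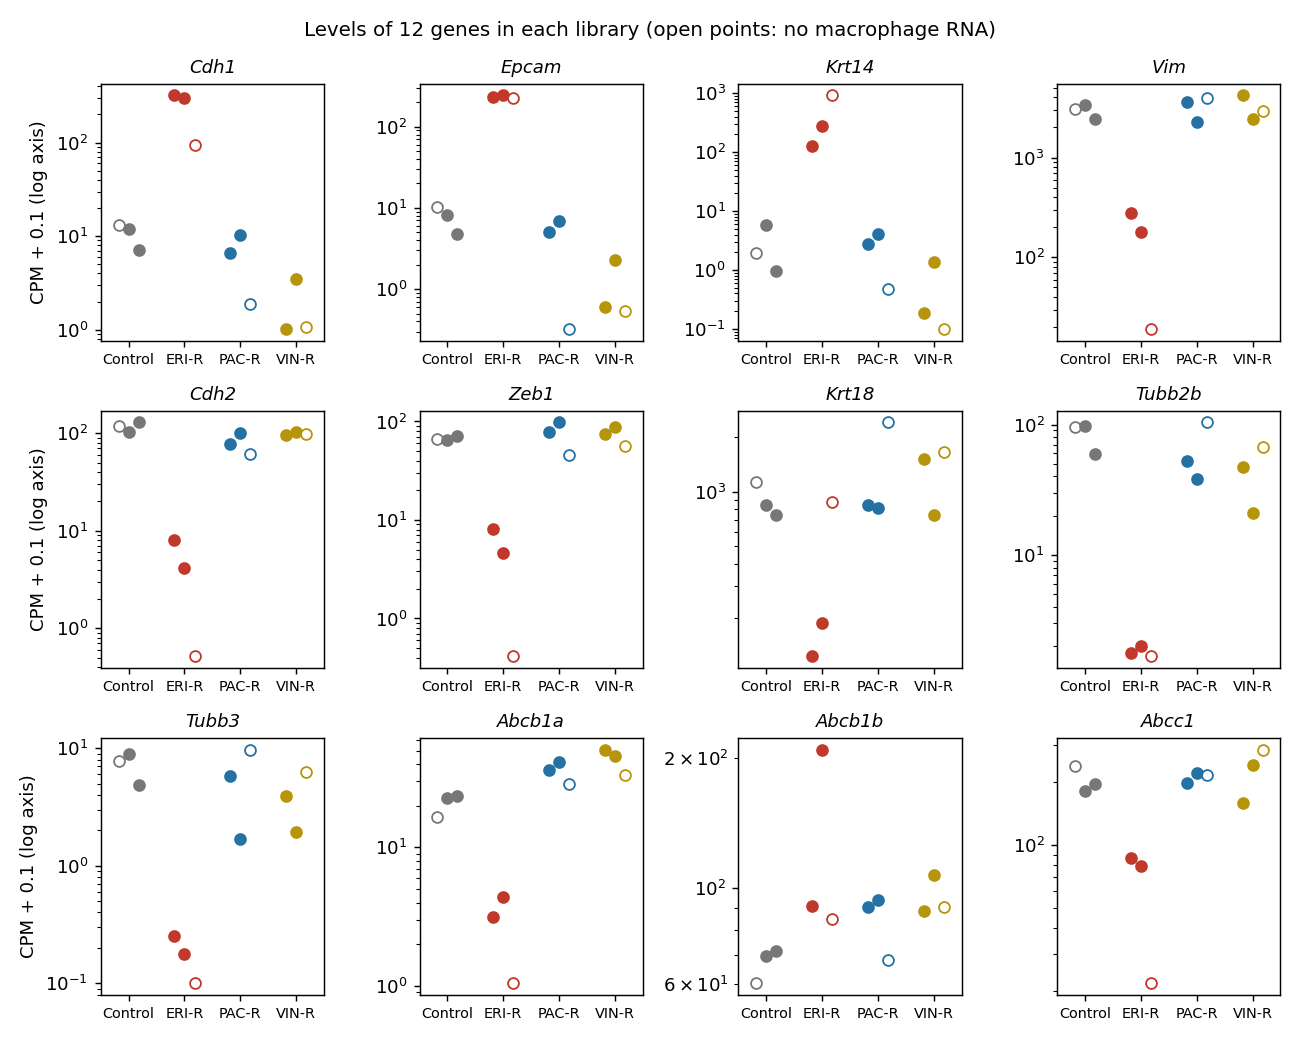
CPM + 0.1 on a log axis for 12 genes in each of the 12 libraries (one point per library, replicates 1 to 3 from left to right in each group; open points mark libraries without macrophage RNA). Cdh1, Epcam and Krt14 stand high in the 3 ERI-R libraries and Vim, Cdh2, Zeb1, Tubb2b and Abcb1a low, while Abcb1b of ERI-R 1 and 3 lies within the range of PAC-R.

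Keratins, the filament proteins of epithelia, differed by member. Of 13 tested genes of basal keratins and hemidesmosomes, 9 were higher and 1 lower, with a median of 4.01. The median was 3.40 without PAC-R 2, 4.79 without ERI-R 3, 4.74 without PAC-R 3, 4.61 with the replicate block and 5.08 in the 8 libraries with macrophage RNA. Krt14, a keratin of basal and myoepithelial cells, stood at 129, 274 and 924 CPM in ERI-R 1 to 3 and 2.68, 4.05 and 0.374 CPM in PAC-R 1 to 3. The highest PAC-R library lay below the lowest ERI-R library by more than an order of magnitude, and the log2 fold change was 7.66 ± 1.36 (SE, adjusted p = 0.00175), or 6.26 without ERI-R 3 and 6.71 without PAC-R 3. Krt17, another basal keratin, stood at 14.3, 11.2 and 75.96 CPM in ERI-R 1 to 3 and 0.575, 0.169 and 0.0747 CPM in PAC-R 1 to 3 (6.57, adjusted p = 0.00127, 5.54 without ERI-R 3 and 5.44 without PAC-R 3). Krt5, the usual partner of Krt14, stood at 4.27, 3.74 and 11.9 CPM in ERI-R and had 3 counts in PAC-R, a ratio of 72.5 (95% counting interval 24.5 to 355), and a fitted log2 fold change of 6.097, or 5.24 without ERI-R 3. The hemidesmosome genes Col17a1, Lamb3, Lama3 and Itgb4 were higher too, as were Krt15 and Krt6a. Dst, a linker between filaments and hemidesmosomes, was lower at 255, 206 and 64.2 CPM in ERI-R 1 to 3 and 685, 1186 and 529 CPM in PAC-R 1 to 3 (-2.24, adjusted p = 0.00794).

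The simple-epithelial keratins moved in both directions. Krt8 and Krt18 form the filaments of luminal cells, and both were lower in ERI-R. Krt18 stood at 123, 187 and 879 CPM in ERI-R 1 to 3 and 845, 806 and 2406 CPM in PAC-R 1 to 3, so that ERI-R 3 exceeded PAC-R 1 and 2. Its log2 fold change was -1.99 (adjusted p = 0.00807), and the call was lost without the covariate (adjusted p = 0.131). Krt8 had a log2 fold change of -1.46 (adjusted p = 0.0311) that was lost without ERI-R 1, ERI-R 2, PAC-R 1 or PAC-R 3 (adjusted p of 0.0902, 0.06505, 0.0729 and 0.142). Krt19, Krt23 and Krt7 were higher, and Krt19 stood at 19.2, 23.6 and 110.4 CPM in ERI-R 1 to 3 and 4.79, 3.03 and 6.65 CPM in PAC-R 1 to 3 (3.13, adjusted p = 0.00571, and 2.49 without ERI-R 3). Krt19 was not called in the 8 libraries with macrophage RNA alone (adjusted p = 0.0606). On the authors' length-normalised scale (TPM), Krt14 made up 29.1 ± 4.68% (SD, n = 3) of the listed keratins in ERI-R and 0.176 ± 0.167% in PAC-R. Krt18 made up 24.5 ± 4.03% and 59.4 ± 3.49%, and Krt8 23.99 ± 2.58% and 38.2 ± 3.75%. Krt5, the basal partner, stayed at a mean of 0.339% of the family in ERI-R.

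Genes of the mammary lineages were called in both directions, 7 higher and 3 lower of 13 tested, with a median of 3.895. The median was 3.05 without ERI-R 3 and 3.16 in the 8 libraries with macrophage RNA. Prlr, the prolactin receptor, stood at 181, 218 and 229 CPM in ERI-R 1 to 3 and 2.59, 4.64 and 0.0747 CPM in PAC-R 1 to 3, a log2 fold change of 7.21 (adjusted p = 0.001402, 5.91 without ERI-R 3 and 6.47 without PAC-R 3). Wnt4, a paracrine signal of the mammary epithelium, stood at 5.33, 7.55 and 33.03 CPM in ERI-R 1 to 3 and 0.192, 0.0843 and 0.374 CPM in PAC-R 1 to 3 (5.87, adjusted p = 0.000182, and 5.02 without ERI-R 3). Also higher were Cited1, Ly6d, Kit, Pgr and Muc1. The libraries of ERI-R and PAC-R did not overlap for Prlr or Wnt4. Csn3, kappa-casein, was lower at 16.4, 9.92 and 38.9 CPM in ERI-R 1 to 3 and 127, 164 and 124 CPM in PAC-R 1 to 3 (-2.76, adjusted p = 0.000893), and so was Areg, the epidermal growth factor ligand amphiregulin, at 29.2, 27.997 and 58.5 CPM in ERI-R 1 to 3 and 245, 264 and 287 CPM in PAC-R 1 to 3 (-2.796, adjusted p = 0.000263). Csn2, Lalba and Wap, the other milk protein genes listed, had too few counts to test.

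Mesenchymal genes lay mostly on the other side. Of 26 tested mesenchymal and matrix genes, 13 were lower in ERI-R and 4 higher, with a median of -2.27. Vim, the intermediate filament vimentin, stood at 276, 180.3 and 19.1 CPM in ERI-R 1 to 3 and 3566, 2253 and 3906 CPM in PAC-R 1 to 3. The highest ERI-R library was below the lowest PAC-R library, and ERI-R 3, without macrophage RNA, was the lowest of all. The log2 fold change was -4.54 ± 0.78 (SE, adjusted p = 0.00143), or -3.63 without ERI-R 3. Cdh2, the mesenchymal cadherin, stood at 7.92, 4.04 and 0.421 CPM in ERI-R 1 to 3 and 78.1, 101 and 61.3 CPM in PAC-R 1 to 3 (-4.37, adjusted p = 0.000504, and -3.64 without ERI-R 3). S100a4, a calcium-binding protein of motile cells, stood at 23.01, 24.3 and 64.5 CPM in ERI-R 1 to 3 and 484, 331 and 1821 CPM in PAC-R 1 to 3 (-4.37, adjusted p = 0.000109). Fbn1, the microfibril protein fibrillin-1, and Fbln2, a matrix glycoprotein, had log2 fold changes of -5.18 and -5.06, or -4.36 and -4.17 without ERI-R 3.

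The 4 members of that list that were higher in ERI-R were Fbln5, Postn, Bgn and Itgb3. Fbln5, an elastic-fibre protein, stood at 78.3, 70.7 and 43.8 CPM in ERI-R 1 to 3 and 2.59, 3.203 and 0.971 CPM in PAC-R 1 to 3 (4.87, adjusted p = 0.000244). Postn, the matrix protein periostin, stood at 99.2, 62.1 and 22.9 CPM in ERI-R 1 to 3 and 16.2, 7.92 and 0.299 CPM in PAC-R 1 to 3, a log2 fold change of 3.76 (adjusted p = 0.0124). The Postn call was lost without PAC-R 2 or PAC-R 3 (adjusted p = 0.0506 and 0.0619), and its value was 2.95 without ERI-R 3. Tagln and Acta2, markers of contractile mesenchymal cells, were near the floor in both lines (0.842 against 2.29 CPM and 1.17 against 5.28 CPM) and were not called.

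Factors that drive the mesenchymal state were lower in 10 of 18 tested members and higher in 2, with a median of -1.34. Zeb1, a repressor of Cdh1, stood at 8.08, 4.501 and 0.316 CPM in ERI-R 1 to 3 and 78.6, 97.6 and 45.4 CPM in PAC-R 1 to 3, without overlap (-4.23 ± 0.61, SE, adjusted p = 0.000567, and -3.52 without ERI-R 3). Hmga2, a chromatin protein of mesenchymal tumour cells, stood at 52.9, 29.9 and 1.58 CPM in ERI-R 1 to 3 and 1014, 1287 and 684 CPM in PAC-R 1 to 3 (-5.44, adjusted p = 0.000617, and -4.59 without ERI-R 3). Twist2 stood at 0.457, 0.6103 and 0.421 CPM in ERI-R 1 to 3 and 14.8, 13.9 and 39.004 CPM in PAC-R 1 to 3 (-5.29, adjusted p = 5.25e-05). The related Twist1 changed less, from 44.01, 52.3 and 46.3 CPM in PAC-R to 24.5, 20.5 and 12.8 CPM in ERI-R (-1.34, adjusted p = 0.00197). Prrx1, Foxc2, Foxf1 and Tcf4 were also lower.

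The Snai genes did not move together. Snai2 was lower at 5.56, 3.66 and 1.05 CPM in ERI-R 1 to 3 and 17.3, 27.9 and 3.74 CPM in PAC-R 1 to 3 (-2.16, adjusted p = 0.00134), with PAC-R 3 inside the ERI-R range, and it was not called without the covariate (adjusted p = 0.0992). Snai1 stood at 17.7, 10.99 and 27.98 CPM in ERI-R 1 to 3 and 13.7, 13.8 and 28.2 CPM in PAC-R 1 to 3 with a log2 fold change of 0.03, an SE of 0.27 and an adjusted p of 0.944. Zeb2, which macrophages also express, stood at 94.8, 63.7 and 1.68 CPM in ERI-R 1 to 3 and 403, 266 and 23.1 CPM in PAC-R 1 to 3 (-2.29, adjusted p = 0.0286). Its level followed the macrophage RNA within each line, and the part of that RNA in the difference was not tested. The Zeb2 call was lost without ERI-R 2, ERI-R 3, PAC-R 1 or PAC-R 2 (adjusted p of 0.0791, 0.06598, 0.0972 and 0.0563). Foxc1, a forkhead factor, was higher in ERI-R at 71.9, 85.8 and 38.7 CPM in ERI-R 1 to 3 and 30.97, 29.5 and 26.7 CPM in PAC-R 1 to 3 (1.11, adjusted p = 0.00619). Tbx2, the other factor called higher, had 3 counts in PAC-R, a ratio of 17.6 (95% counting interval 5.72 to 88.2), and was not called without PAC-R 3 (adjusted p = 0.0539).

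Collagens and matrix enzymes followed the mesenchymal genes. Of 20 tested collagen chains 11 were lower and 2 higher, with a median of -1.74. Col4a2, a chain of basement membrane collagen, stood at 9.83, 4.96 and 0.2104 CPM in ERI-R 1 to 3 and 201, 214 and 502 CPM in PAC-R 1 to 3 (-5.64, adjusted p = 0.00137). Col8a1, a short-chain collagen, stood at 7.24, 4.12 and 0.2104 CPM in ERI-R 1 to 3 and 212, 176 and 133 CPM in PAC-R 1 to 3 (-5.66, adjusted p = 0.000209). Without ERI-R 3 these values were -4.69 and -4.91. Col4a1, the partner chain of Col4a2, and Col5a1 and Col7a1 were lower as well. Col11a1, a fibril-forming chain, was higher in ERI-R at 91.4, 105 and 39.3 CPM in ERI-R 1 to 3 and 2.68, 3.12 and 0.971 CPM in PAC-R 1 to 3 (5.12, adjusted p = 0.000105). Col12a1 had values of 118, 109.9 and 30.3 CPM in ERI-R 1 to 3 and 22.9, 22.7 and 25.6 CPM in PAC-R 1 to 3 and differed by 1.91 (adjusted p = 0.0299). It was no longer called when any library but ERI-R 3 was left out, with an adjusted p from 0.0786 without ERI-R 1 to 0.0921 without PAC-R 2.

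Among 23 tested matrix proteases, their inhibitors and crosslinking enzymes, 13 were lower and 4 higher, with a median of -2.13, or -1.54 without ERI-R 3. Loxl3, a collagen crosslinker, stood at 9.52, 5.34 and 1.37 CPM in ERI-R 1 to 3 and 227, 156 and 298 CPM in PAC-R 1 to 3 (-5.38, adjusted p = 0.000195). Timp1, an inhibitor of metalloproteinases, stood at 7.01, 4.35 and 0.2104 CPM in ERI-R 1 to 3 and 116, 100.3 and 261 CPM in PAC-R 1 to 3 (-5.17, adjusted p = 0.00138). ERI-R 3 was again the lowest, and the values without it were -4.61 and -4.23. The stromelysins Mmp3 and Mmp10, the plasminogen activators Plau and Plat and the receptor Plaur were lower too. Mmp15, a membrane-bound metalloproteinase, was higher at 31.2, 46.4 and 62.7 CPM in ERI-R 1 to 3 and 0.575, 1.35 and 0.747 CPM in PAC-R 1 to 3 (5.67, adjusted p = 0.000117). Adamts1, a secreted protease, was higher at 451, 319.6 and 142 CPM in ERI-R 1 to 3 and 17.1, 17.4 and 8.44 CPM in PAC-R 1 to 3 (4.39, adjusted p = 8.29e-05), and Timp3 and Adamts5 were the other 2.

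Targets of YAP and of the actin-regulated factor SRF were lower in 12 of 23 tested members and higher in 1, with a median of -1.23. Axl, a receptor kinase of mesenchymal cells, stood at 95.3, 88.04 and 27.2 CPM in ERI-R 1 to 3 and 1055, 1224 and 1307 CPM in PAC-R 1 to 3 (-4.09, adjusted p = 0.000168, and -3.42 without ERI-R 3). Tpm2, a tropomyosin, stood at 1.295, 1.45 and 3.05 CPM in ERI-R 1 to 3 and 14.9, 7.84 and 31.4 CPM in PAC-R 1 to 3 (-3.16, adjusted p = 0.000325). Neither overlapped between the lines. The actin-binding genes Cnn2, Actn1, Flna and Tpm4 were among the others called lower. The YAP targets Ccn2 and Ankrd1 had values of -1.14 and -0.55 and were not called. Ptpn14, which restrains YAP, was the 1 member called higher (1.42), a call lost without ERI-R 2, PAC-R 1 or PAC-R 3 (adjusted p of 0.0845, 0.0909 and 0.0798).

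Tubulins, which both drugs bind, differed in isotype. Of 15 tested tubulin genes 3 were higher and 2 lower, 33.3% called against 29.4% of all genes tested. Tubb2b, a beta-tubulin of neurons, stood at 1.68, 1.91 and 1.58 CPM in ERI-R 1 to 3 and 52.4, 38.3 and 104 CPM in PAC-R 1 to 3. The ERI-R libraries were even, and each lay more than an order of magnitude below the lowest PAC-R library, with a log2 fold change of -5.09 ± 0.45 (SE, adjusted p = 5.87e-05). Tubb3, the neuronal class III beta-tubulin that is often studied in taxane resistance, had 3 counts in ERI-R and stood at 5.75, 1.601 and 9.64 CPM in PAC-R. PAC-R was higher by a ratio of 69.4 (95% counting interval 23.4 to 339.5), and the parental mean was 7.14 CPM. The fitted log2 fold change was -5.76 (adjusted p = 0.000607), or -4.92 without ERI-R 3. Tubb2a was higher in ERI-R at 61.4, 153 and 383 CPM in ERI-R 1 to 3 and 54.8, 30.1 and 84.96 CPM in PAC-R 1 to 3, a log2 fold change of 1.68 (adjusted p = 0.0137). ERI-R 1 overlapped PAC-R, and the Tubb2a call was lost without PAC-R 2 or PAC-R 3 (adjusted p = 0.05803 and 0.0573). Tuba8 and Tubd1 were the other 2 members called higher.

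The abundant isotypes were not called. Tubb5 stood at 609, 790.4 and 1814 CPM in ERI-R 1 to 3 and 1026, 697 and 1772 CPM in PAC-R 1 to 3 (-0.17, adjusted p = 0.737) and Tubb4b at 191, 421 and 1110.4 CPM in ERI-R 1 to 3 and 239, 139.6 and 548 CPM in PAC-R 1 to 3 (0.82, adjusted p = 0.168). Tubb6 and Tuba1a had log2 fold changes of 0.297 and -1.03 (adjusted p = 0.584 and 0.103). In both lines replicate 3 had the highest level of each of these 4 genes, so that the libraries overlapped widely. Shares of the beta-tubulin total were taken in TPM, which compares genes per length within a library. Tubb5 made up 48.1, 37.1 and 35.2% in ERI-R 1 to 3 and 54.1, 58.2 and 48.3% in PAC-R 1 to 3. Tubb2a made up 11.1 ± 2.49% (SD, n = 3) and 4.38 ± 0.4798%. Tubb4b made up 32.5 ± 5.899% and 22.6 ± 3.11%. Tubb2b made up 0.102 ± 0.0608% and 3.72 ± 0.421%. The Tubb2a and Tubb2b shares did not overlap between the lines, while the Tubb4b shares met at ERI-R 1 and PAC-R 3. With 3 libraries against 3, an exact permutation test cannot go below p = 0.1, so no test of single shares was used. These genes are close paralogs, and reads shared between them may be split unevenly.

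**Figure D3:**
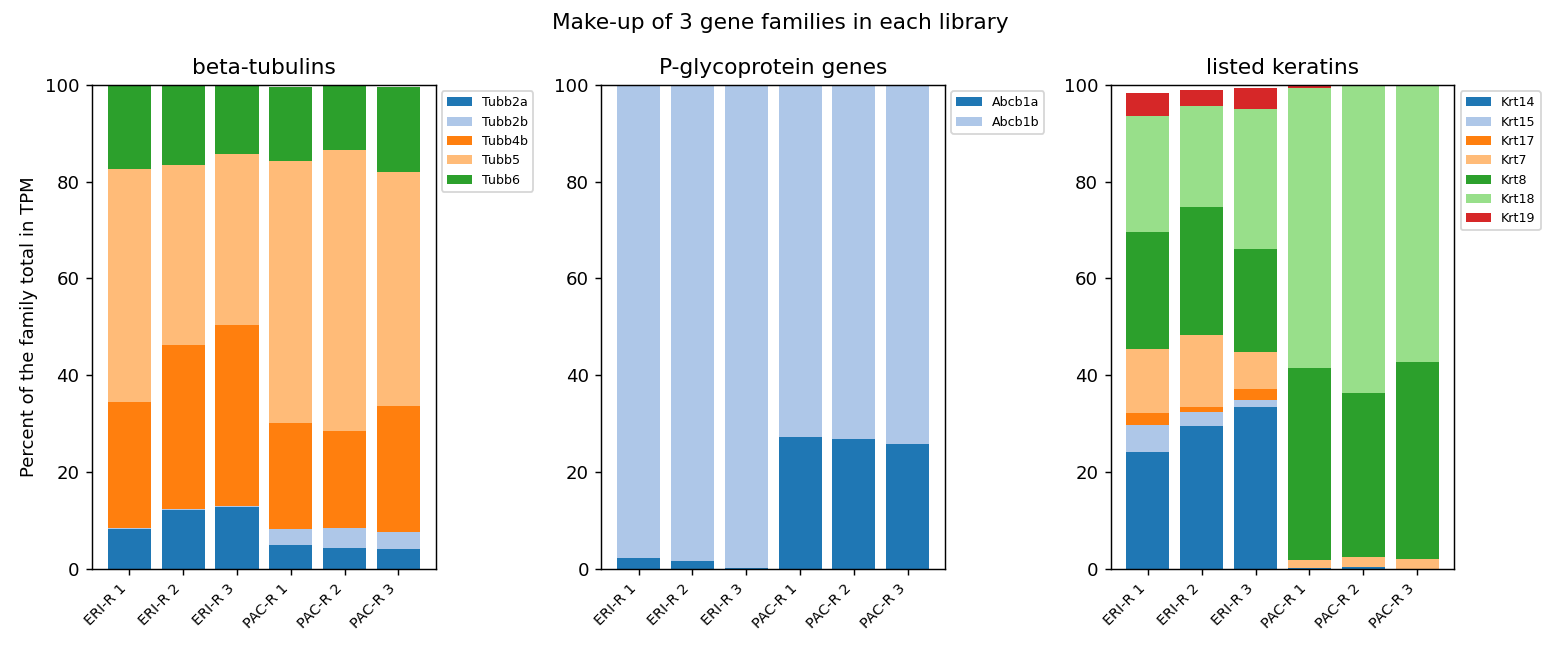
Stacked percent of the family total in TPM for beta-tubulins, the 2 P-glycoprotein genes and the listed keratins in ERI-R 1 to 3 and PAC-R 1 to 3; members under 1% are left out, so a bar may stop short of 100. Abcb1b makes up nearly all P-glycoprotein transcripts in ERI-R (mean 98.6%) and 73.4% in PAC-R, and Krt14 is visible in ERI-R only.

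Proteins that bind microtubules were called in both directions, 8 higher and 8 lower of 31 tested, 51.6% against 29.4% of all genes tested. Their median was 0.00, and 0.50 without ERI-R 3. Clip4, a plus-end protein, stood at 6.78, 9.46 and 10.9 CPM in ERI-R and had 3 counts in PAC-R, a ratio of 105 (95% counting interval 35.8 to 514). Camsap3, which caps the minus ends of microtubules in epithelial cells, stood at 18.1, 16.3 and 48.2 CPM in ERI-R 1 to 3 and 0.671, 0.337 and 1.196 CPM in PAC-R 1 to 3 (5.15, adjusted p = 0.0003297). Map7, Mid1, Mapt, Dclk1, Map2 and Mapre3 were the other members called higher. Mapt, the tau protein of neurons, stayed low at 2.17 against 0.4796 CPM. Map1b, a stabilising protein of neurons, was lower at 40.2, 19.1 and 14.6 CPM in ERI-R 1 to 3 and 382, 559.6 and 319.5 CPM in PAC-R 1 to 3 (-4.13, adjusted p = 5.87e-05). Map6, which protects microtubules from cold, was lower at 1.14, 0.839 and 0.2104 CPM in ERI-R 1 to 3 and 12.8, 12.1 and 22.6 CPM in PAC-R 1 to 3 (-4.23, adjusted p = 0.000219, and -3.47 without ERI-R 3). Map4, the ubiquitous stabiliser, had means of 137 against 277 CPM (-1.01, adjusted p = 0.0185). The end-binding protein Mapre1 and the destabiliser Stmn1 had values of -0.03 and 0.02 and were not called.

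Of 22 tested enzymes and chaperones of tubulin, 1 was higher and 4 lower, 22.7% called against 29.4% of all genes tested. Agbl5, which removes glutamates from tubulin tails, stood at 72.4, 56.1 and 73.6 CPM in ERI-R 1 to 3 and 8.34, 10.96 and 9.34 CPM in PAC-R 1 to 3 (2.81 ± 0.22, SE, adjusted p = 5.28e-05). Atat1, the acetyltransferase of alpha-tubulin, was lower at 2.13, 1.53 and 2.63 CPM in ERI-R 1 to 3 and 7.67, 9.102 and 13.4 CPM in PAC-R 1 to 3 (-2.25, adjusted p = 0.000454). Vash2, which removes the terminal tyrosine of alpha-tubulin, was lower at 3.28, 2.52 and 1.58 CPM in ERI-R 1 to 3 and 11.5, 11.97 and 13.7 CPM in PAC-R 1 to 3 (-2.29, adjusted p = 0.000577), and so was Ttl, the enzyme that restores it (-0.66, adjusted p = 0.0217). The libraries of the lines did not overlap for any of these 4 genes. Ttll7 was the remaining member called lower.

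Genes of mitosis and the spindle checkpoint, the step that both drugs block, were called in 4 of 30 members (13.3%), where 29.4% of all genes tested were called. Mad1l1, a checkpoint protein, was higher at 79.5, 96.1 and 245 CPM in ERI-R 1 to 3 and 25.9, 19.7 and 58.6 CPM in PAC-R 1 to 3 (1.99, adjusted p = 0.0006097). Birc5, the chromosomal passenger survivin, was higher at 158, 189.9 and 430.2 CPM in ERI-R 1 to 3 and 70.3, 48.1 and 108 CPM in PAC-R 1 to 3 (1.72, adjusted p = 0.00737), and Cenpa was the other. Birc5 was not called in the 8 libraries with macrophage RNA alone (adjusted p = 0.0509). Ndc80, a kinetochore protein, was called lower at -0.69 (adjusted p = 0.0336) but not with the replicate block (adjusted p = 0.185). Its adjusted p without a library other than ERI-R 1 ranged from 0.0799 without PAC-R 1 to 0.182 without ERI-R 3.

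The P-glycoprotein genes differed from each other. Abcb1a stood at 3.05, 4.27 and 0.947 CPM in ERI-R 1 to 3 and 36.1, 41.5 and 28.5 CPM in PAC-R 1 to 3, and its ERI-R libraries lay below all others, Control included (mean 20.9 CPM). The log2 fold change was -3.76 ± 0.32 (SE, adjusted p = 5.87e-05). Abcb1b stood at 90.8, 209 and 84.8 CPM in ERI-R 1 to 3 and 90.3, 93.7 and 68.2 CPM in PAC-R 1 to 3, with ERI-R 2 above all other libraries and the other 2 within the range of PAC-R. Its log2 fold change was 0.59 ± 0.29 (SE, adjusted p = 0.161), and without ERI-R 3 it was 0.92 (adjusted p = 0.04298). In TPM, Abcb1b made up 97.8, 98.3 and 99.8% of the summed P-glycoprotein transcripts in ERI-R 1 to 3 and 72.7, 73.2 and 74.3% in PAC-R 1 to 3. The sum of both genes was 61.8, 112 and 89.9 TPM in ERI-R and 54.8, 68.5 and 43.6 TPM in PAC-R. ERI-R 1 overlapped PAC-R 2 in this sum, and the parental libraries lay between 36.7 and 46.4 TPM. Reads shared between the 2 paralogs may be split unevenly.

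Abcb1a (chr5:8660077-8748575) and Abcb1b (chr5:8798147-8866315) lie next to each other on the plus strand of GRCm38, and a list of 21 neighbours was examined because drug selection can alter that region. Of 18 tested neighbours 7 were higher and 4 lower in ERI-R, 61.1% called against 29.4% of all genes tested. Over the first 50 Mb of chromosome 5, 113 of 184 genes at 10 CPM or more (61.4%) were called higher and 8 lower. The part of that wider shift in the neighbours was not tested. Dbf4, Slc25a40, Rundc3b, Gtpbp10 and Cdk14 had log2 fold changes between 1.21 and 1.55, and each had libraries that overlapped between the lines. Replicate 3 was the lowest of its line for all 5. Steap4, a metalloreductase, stood at 132, 36.5 and 10.5 CPM in ERI-R 1 to 3 and 1.73, 3.37 and 0 CPM in PAC-R 1 to 3 (5.44, adjusted p = 0.000961), and was not called without the covariate (adjusted p = 0.0602). Sema3d, a guidance ligand, was higher (4.14, adjusted p = 0.000858). Sema3a, a related ligand, was lower at 2.895, 3.81 and 0.526 CPM in ERI-R 1 to 3 and 76.2, 95.9 and 32.7 CPM in PAC-R 1 to 3 (-4.82, adjusted p = 0.000114), and so was Steap2 (-2.11, adjusted p = 0.00121).

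Among all 23 tested ABC transporters 5 were higher and 5 lower, 43.5% called against 29.4% of all genes tested. Abcc1, the multidrug resistance protein MRP1, was lower at 86.1, 79.3 and 21.7 CPM in ERI-R 1 to 3 and 198, 221 and 217 CPM in PAC-R 1 to 3 (-1.79, adjusted p = 0.0116, and -1.11 without ERI-R 3). Abcc4, an exporter of organic anions, was lower at 9.601, 7.63 and 1.68 CPM in ERI-R 1 to 3 and 31.6, 45.8 and 36.5 CPM in PAC-R 1 to 3 (-2.59, adjusted p = 0.00501, and -1.89 without ERI-R 3). Abca7 and Abca3 completed the lower group with Abcb1a. Abcb9, a lysosomal peptide transporter, was higher at 4.34, 2.98 and 15.1 CPM in ERI-R 1 to 3 and 0.863, 0.5899 and 0.822 CPM in PAC-R 1 to 3 (3.06, adjusted p = 0.0055995), and Abcb8, a mitochondrial transporter, at 37.4, 40.5 and 106 CPM in ERI-R 1 to 3 and 16.01, 12.4 and 38.2 CPM in PAC-R 1 to 3 (1.46, adjusted p = 0.00124). Abcb6, Abcb10 and Abcd3 were the other 3. Abcg2, the breast cancer resistance protein, stood at 16.8, 11.7 and 6.73 CPM in ERI-R 1 to 3 and 13.3, 9.61 and 10.6 CPM in PAC-R 1 to 3 and was not called (0.09, adjusted p = 0.881).

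Detoxification enzymes and targets of NRF2 were higher in 7 and lower in 12 of 31 tested members. This was 61.3% called against 29.4% of all genes tested. Fmo1, a flavin monooxygenase, stood at 9.22, 4.58 and 6.31 CPM in ERI-R 1 to 3 and 0.192, 0.253 and 0 CPM in PAC-R 1 to 3 (5.55, adjusted p = 0.00103). Nqo1, a quinone reductase and NRF2 target, had means of 25.2 against 1.18 CPM (4.51, adjusted p = 0.000785), and Cyp1b1 of 42.2 against 2.799 CPM (4.09, adjusted p = 0.000851). Other NRF2 targets were lower, among them Srxn1, Gsr and Pgd (-1.36, -1.06 and -1.297). Cyp2j6, a fatty acid epoxygenase, was lower at 0.6096, 1.297 and 0.105 CPM in ERI-R 1 to 3 and 11.3, 12.2 and 10.5 CPM in PAC-R 1 to 3 (-4.11, adjusted p = 0.000152). The targets Gclm, Hmox1 and Slc7a11 were not called.

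Of 23 tested genes around p53, 7 were higher and 2 lower, 39.1% called against 29.4% of all genes tested. Cdkn2a, which encodes the cell-cycle inhibitors Ink4a and Arf, stood at 10.4, 10.5 and 45.7 CPM in ERI-R 1 to 3 and 0.192, 0.169 and 0 CPM in PAC-R 1 to 3 (7.23, adjusted p = 0.00168, 5.97 without ERI-R 3 and 6.05 without PAC-R 3). Its level was near the floor in PAC-R, Control (0.112 CPM) and VIN-R (0 CPM). Cdkn2b, the adjacent inhibitor gene, stood at 11.7, 7.25 and 19.99 CPM in ERI-R 1 to 3 and 1.82, 0.843 and 0 CPM in PAC-R 1 to 3 (4.47, adjusted p = 0.0185), a call lost without PAC-R 2 or PAC-R 3 (adjusted p = 0.0638 and 0.0731). Without ERI-R 3 its value was 3.01. Gdf15, Phlda3, Ei24, Ddb2 and Aen were the other members called higher. Gadd45a and Plk3 were lower (-2.27 and -2.15). Trp53 stood at 75.4, 95.6 and 149 CPM in ERI-R 1 to 3 and 106, 99.4 and 245 CPM in PAC-R 1 to 3 and was not called (-0.43, adjusted p = 0.185), nor were its targets Cdkn1a and Mdm2 (0.35 and -0.39). The 9 calls of this list became 5 without PAC-R 2 and 5 without PAC-R 3.

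Apoptosis regulators were lower in 7 of 26 tested members and higher in none. They included Bok and Bmf, which promote cell death, and the protective genes Cflar, Bcl2l1 and Bcl2l2. Bok stood at 1.07, 1.22 and 6.63 CPM in ERI-R 1 to 3 and 10.3, 7.33 and 32.2 CPM in PAC-R 1 to 3 (-2.61, adjusted p = 0.003404), and was not called without the covariate (adjusted p = 0.0712). Bmf was called at -1.904, but not with the replicate block (adjusted p = 0.0506). The share called was 26.9%, close to the 29.4% of all genes tested.

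Growth factors and their receptors were lower in 16 of 37 tested members and higher in 7, with a median of -0.88. The share called was 62.2%, against 29.4% of all genes tested. The binding proteins of insulin-like growth factors were called in opposite directions. Igfbp5 stood at 5389, 4492 and 6950.4 CPM in ERI-R 1 to 3 and 98.4, 142 and 0.374 CPM in PAC-R 1 to 3, the largest mean of any gene named here that was higher in ERI-R. Its log2 fold change of 9.36 (adjusted p = 0.0118) depended on PAC-R 3, where the gene was near the floor, and on ERI-R 3. It was 7.51 (adjusted p = 0.0542) without PAC-R 3 and 5.59 (adjusted p = 0.00382) without ERI-R 3. Igfbp2 stood at 90.8, 87.4 and 537 CPM in ERI-R 1 to 3 and 2.01, 2.11 and 0 CPM in PAC-R 1 to 3 (7.57, adjusted p = 0.00406, 5.599 without ERI-R 3 and 6.35 without PAC-R 3). Igfbp3 was lower at 1.6001, 0.229 and 0 CPM in ERI-R 1 to 3 and 32.99, 46.9 and 45.7 CPM in PAC-R 1 to 3 (-5.99, adjusted p = 0.000698, and -5.26 without ERI-R 3), and Igfbp4 was lower at means of 167 against 2786 CPM (-4.07).

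The receptor genes Fgfr2, Fgfr3, Erbb3 and Kit were higher, and Pdgfrb, Fgfr1, Igf1r and Ngfr were lower. Fgfr2, the keratinocyte growth factor receptor, had means of 22.8 against 0.236 CPM (6.74, adjusted p = 0.000334), and Pdgfrb of 0.877 against 23.6 CPM (-4.53, adjusted p = 0.000177). Among ligands, Fgf2, Btc and Hbegf were lower, and Egfr and Met were not called.

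Signalling pathways held calls in both directions. Of 35 tested Wnt genes 10 were higher and 9 lower, 54.3% called against 29.4% of all genes tested. Nkd2, an inhibitor of the Wnt cascade, stood at 202, 182 and 462 CPM in ERI-R 1 to 3 and 4.698, 5.56 and 1.57 CPM in PAC-R 1 to 3 (6.42, adjusted p = 0.000512, and 5.26 without ERI-R 3). Wnt5b, the receptor genes Fzd6 and Fzd7, the R-spondin receptors Lgr4 and Lgr5, the ligase Rnf43 and the factors Tcf7 and Tcf7l1 were higher with Wnt4. Wnt5a, a ligand of the noncanonical branch, was lower at 3.81, 1.14 and 0 CPM in ERI-R 1 to 3 and 94.4, 81.1 and 50.1 CPM in PAC-R 1 to 3 (-5.56, adjusted p = 0.000352, and -4.85 without ERI-R 3). Its receptor Ror2 had 3 counts in ERI-R and 5.66, 1.85 and 10.8 CPM in PAC-R, a ratio of 75.1 (95% counting interval 25.4 to 367), and its fitted log2 fold change was -5.83, or -4.92 without ERI-R 3. Axin2, a direct target of beta-catenin, was lower at means of 0.455 against 1.93 CPM (-1.98, adjusted p = 0.0101).

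Notch genes were higher in 6 and lower in 3 of 16 tested, 56.25% called against 29.4% of all genes tested. Hey1, a target factor of Notch, stood at 89.3, 45.7 and 53.8 CPM in ERI-R 1 to 3 and 2.01, 1.69 and 0.149 CPM in PAC-R 1 to 3 (5.94, adjusted p = 0.000133). Notch3, a receptor, stood at 70.6, 72.9 and 38.7 CPM in ERI-R 1 to 3 and 3.36, 5.23 and 3.14 CPM in PAC-R 1 to 3 (3.94, adjusted p = 0.000125), and Notch1 had means of 312 against 59.98 CPM (2.39, adjusted p = 0.000222). The ligands differed in sign, with Jag2 higher (3.79) and Jag1 lower at 24.99, 18.2 and 2.52 CPM in ERI-R 1 to 3 and 121, 175 and 32.6 CPM in PAC-R 1 to 3 (-2.92, adjusted p = 0.000864). Rbpj, the DNA-binding partner of the receptors, was lower (-2.15, adjusted p = 0.00312).

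In the TGF-beta, activin and BMP pathway 8 were higher and 13 lower of 36 tested, 58.3% called against 29.4% of all genes. Fst, follistatin, an inhibitor of activin, stood at 49.9, 72.3 and 90.9 CPM in ERI-R 1 to 3 and 3.36, 2.19 and 3.74 CPM in PAC-R 1 to 3 (4.51 ± 0.34, SE, adjusted p = 5.25e-05). Inhbb, a subunit of activin B, stood at 408, 205 and 118 CPM in ERI-R 1 to 3 and 22.7, 22.1 and 15.3 CPM in PAC-R 1 to 3 (3.54, adjusted p = 0.000109), and Inhba, of activin A, was lower at means of 102 against 442 CPM (-2.07, adjusted p = 0.000258). The BMP targets Id1, Id2 and Id3 were higher, while Id4 was lower. Grem1, a BMP antagonist, was lower at 5.26, 3.43 and 0 CPM in ERI-R 1 to 3 and 66.6, 103 and 12.03 CPM in PAC-R 1 to 3 (-4.39, adjusted p = 0.00116), as was the ligand Bmp4 at 0.152, 0.687 and 1.16 CPM in ERI-R 1 to 3 and 6.04, 2.61 and 18.5 CPM in PAC-R 1 to 3 (-3.61, adjusted p = 0.000797). Smad3, which carries the TGF-beta signal, had means of 30.3 against 228 CPM (-2.95, adjusted p = 0.000808), and the ligand Tgfb1 was lower while Tgfb2 was higher (-1.12 and 2.85).

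Guidance genes were called in 29 of 40 tested members (72.5% against 29.4% of all genes tested), 12 higher and 17 lower. Sema7a, a membrane-anchored semaphorin, stood at 7.54, 4.196 and 0 CPM in ERI-R 1 to 3 and 196, 199 and 246 CPM in PAC-R 1 to 3 (-5.75, adjusted p = 0.00117, and -4.85 without ERI-R 3). Sema6d stood at 0.991, 0.915 and 0.105 CPM in ERI-R 1 to 3 and 23.9, 37.2 and 14.05 CPM in PAC-R 1 to 3 (-5.16, adjusted p = 7.65e-05). Efna3, an ephrin ligand, was higher at 7.62, 11.98 and 28.4 CPM in ERI-R 1 to 3 and 0.288, 0.337 and 0.598 CPM in PAC-R 1 to 3 (5.16, adjusted p = 0.0002704), and Robo1, the Slit receptor, at 21.3, 19.99 and 3.998 CPM in ERI-R 1 to 3 and 0.959, 1.01 and 0 CPM in PAC-R 1 to 3 (4.65, adjusted p = 0.0002301). Ephrin receptors were split, with Epha1, Epha7, Ephb3 and Ephb4 higher and Epha2, Epha4, Ephb2 and Ephb6 lower.

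Developmental factors were called in both directions. Sox11 stood at 23.2, 21.97 and 85.5 CPM in ERI-R 1 to 3 and 0.671, 0.506 and 0 CPM in PAC-R 1 to 3 (6.72, adjusted p = 0.00105, 5.43 without ERI-R 3 and 5.69 without PAC-R 3) and Sox6 at 19.2, 15.8 and 6.73 CPM in ERI-R 1 to 3 and 0.959, 0.421 and 0.374 CPM in PAC-R 1 to 3 (4.504, adjusted p = 0.000542). Sox2, a factor of stem cells, was lower at 2.44, 0.6103 and 0.2104 CPM in ERI-R 1 to 3 and 33.7, 50.99 and 27.1 CPM in PAC-R 1 to 3 (-5.105, adjusted p = 0.000246). Of 17 tested Hox genes 2 were higher and 6 lower, 47.1% called against 29.4% of all genes tested, and 5 were called with the replicate block. The lower ones were Hoxa7 and the cluster members Hoxb3, Hoxb4, Hoxb6, Hoxb7 and Hoxb8. Hoxb4 stood at 0.381, 0.381 and 0 CPM in ERI-R 1 to 3 and 4.99, 4.47 and 5.31 CPM in PAC-R 1 to 3 (-4.198, adjusted p = 0.000408, and -3.56 without ERI-R 3). The other Hoxb genes called lower had means between 0.408 and 1.24 CPM in PAC-R. Hoxa13, at the end of its cluster, stood at 9.83, 6.87 and 1.999 CPM in ERI-R and had 3 counts in PAC-R, a ratio of 79.2 (95% counting interval 26.8 to 387).

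Among chromatin regulators, 4 of 20 SWI/SNF subunits and 7 of 35 enzymes of histone and DNA methylation or deacetylation were called, in each case 20% against 29.4% of all genes tested. Smarca2, the ATPase Brm, stood at 98.98, 82.01 and 233 CPM in ERI-R 1 to 3 and 25.1, 21.996 and 23.9 CPM in PAC-R 1 to 3 (2.47 ± 0.34, SE, adjusted p = 0.000392), without overlap. Its paralog Smarca4 had a value of 0.37 and was not called. The SWI/SNF count was 1 without PAC-R 3 and 2 with the replicate block. Tet1, which oxidises methylated cytosine, stood at 27.05, 16.3 and 3.79 CPM in ERI-R 1 to 3 and 1.25, 0.758 and 0.299 CPM in PAC-R 1 to 3 (4.22, adjusted p = 0.000259). Dnmt3b, a methyltransferase that sets new methylation, stood at 6.096, 8.77 and 4.73 CPM in ERI-R 1 to 3 and 0.863, 1.26 and 0.897 CPM in PAC-R 1 to 3 (2.68, adjusted p = 0.000511), and Dnmt3a was higher (1.11, adjusted p = 0.0149). Dnmt1 and Ezh2 were not called (0.21 and 0.29). Kmt2a and Hdac7 were called lower but lost the call with the replicate block (adjusted p = 0.116 and 0.0537). Without PAC-R 2 or PAC-R 3 the 7 calls of the enzyme list became 4, and 3 with the replicate block.

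Cytokines and NF-kB targets were lower in 11 of 28 tested members and higher in 1, with a median of -1.72. The share called was 42.9%, against 29.4% of all genes tested. The median was -0.94 without PAC-R 1, which had the most macrophage RNA, and -0.41 with a macrophage marker score as the covariate. The count of 12 became 7 without ERI-R 2 and 7 without PAC-R 1. Csf2, the cytokine GM-CSF, stood at 1.45, 1.37 and 0 CPM in ERI-R 1 to 3 and 39.2, 45.7 and 41.02 CPM in PAC-R 1 to 3 (-5.54, adjusted p = 0.000152). Tslp, an epithelial alarmin, stood at 3.58, 3.204 and 0.2104 CPM in ERI-R 1 to 3 and 83.7, 90.5 and 84.1 CPM in PAC-R 1 to 3 (-5.29, adjusted p = 0.000135). Both were as high in PAC-R 3, which has no macrophage RNA, as in PAC-R 1 and 2, and without ERI-R 3 their values were -4.86 and -4.55. Ptgs2, the inducible cyclooxygenase, had means of 254 against 1906 CPM (-3.22, adjusted p = 0.0336), and Cxcl12 of 4.01 against 129 CPM (-4.93, adjusted p = 0.000268). Ccl20, a chemokine, was the 1 member called higher, at 13.4, 2.44 and 1.47 CPM in ERI-R 1 to 3 and 0.192, 0.253 and 0.0747 CPM in PAC-R 1 to 3 (4.88, adjusted p = 0.00109, and 3.74 without ERI-R 1, its highest library).

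The markers of macrophages and the interferon-stimulated genes, which were highest in the libraries with macrophage RNA, were not called. None of the 16 macrophage and leukocyte markers and none of 28 interferon-stimulated genes passed the test, while their medians were -1.51 and -1.07. With the macrophage marker score as the covariate the medians were 0.10 and -0.32, and without PAC-R 1 they were -0.69 and -0.44. In the 6 libraries alone 2 and 9 were called, and with the replicate block 7 and 8. The mean log2 CPM of the interferon-stimulated genes was 6.63 and 6.67 in ERI-R 1 and 2 and 8.36 and 7.06 in PAC-R 1 and 2, against 1.95 and 2.34 in replicate 3 of each. The marker sums above were also lower in ERI-R 1 and 2 than in PAC-R 1 and 2. The part of the macrophage RNA in the medians was not tested. Of 9 endothelial and pericyte markers Rgs5 was lower at 2.44, 1.602 and 0.105 CPM in ERI-R 1 to 3 and 53.4, 93.97 and 19.2 CPM in PAC-R 1 to 3 (-5.27, adjusted p = 0.000672, and -4.66 without ERI-R 3). Cdh5 was called at -3.11 (means of 0.178 against 1.72 CPM), but not without ERI-R 2, ERI-R 3, PAC-R 1 or PAC-R 2 (adjusted p of 0.128, 0.113, 0.0861 and 0.135), and Cldn5 and Tie1 had no counts. The marker sum of this list was 9.98, 7.40 and 0.842 CPM in ERI-R 1 to 3 and 72.1, 103.9 and 20.2 CPM in PAC-R 1 to 3. In each PAC-R library most of this sum was the single gene Rgs5. The part of such cells in the lower matrix genes was not tested.

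Stress lists and metabolic lists differed in their share of calls. The unfolded protein and integrated stress response list had 8 genes lower and 1 higher of 26, with a median of -0.75, 34.6% called against 29.4% of all genes tested. Nupr1, a stress-induced chromatin protein, stood at 37.3, 14.3 and 51.4 CPM in ERI-R 1 to 3 and 192, 207 and 172 CPM in PAC-R 1 to 3 (-2.44, adjusted p = 0.00256), and Atf4, Xbp1 and Hspa5 were called lower with values between -1.002 and -0.89. The 9 calls became 4 without ERI-R 2, 3 without PAC-R 1, 5 without PAC-R 2, 3 without PAC-R 3 and 5 with the replicate block. Glycolysis and hypoxia genes had 4 higher and 5 lower of 27 (33.3% called), and 5 calls without PAC-R 3. Aldoc, an aldolase, was higher at 78.9, 37.2 and 112 CPM in ERI-R 1 to 3 and 11.2, 4.72 and 13.7 CPM in PAC-R 1 to 3 (2.93, adjusted p = 0.00229), while Gapdh, Ldha and Pgk1 were not called (-0.21, 0.27 and 0.08). Of 30 genes of cholesterol and fatty acid synthesis 3 were higher and 1 lower (13.3% called), and 2 were called without PAC-R 2 or PAC-R 3. Scd1 and Acaca, called higher, lost the call without PAC-R 3 (adjusted p = 0.0796 and 0.0762). None of 13 mitochondrially encoded genes and 3 of 78 ribosomal protein genes were called, and the 3 became 0 without PAC-R 3, 1 without PAC-R 1 and 6 without ERI-R 1.

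Some of the largest differences lay outside the lists. Mia, a secreted cartilage and melanoma protein, stood at 4.42, 5.95 and 62.5 CPM in ERI-R 1 to 3, at least 289-fold above PAC-R. In PAC-R it had no counts after rounding, though its mean there was 0.0333 TPM. Lypd3, a membrane protein of stratified epithelia, stood at 4.42, 4.42 and 15.7 CPM, at least 97.2-fold higher, and Kng2, a kininogen, at 6.02, 3.59 and 12.2 CPM, at least 86.5-fold higher. Both had no counts in PAC-R. Mia was highest in ERI-R 3, and its fitted log2 fold change of 11.01 became 8.66 without that library and 9.201 without PAC-R 3. Those of Lypd3 and Kng2 were 9.56 and 9.48, or 8.92 and 8.87 without PAC-R 3. Wfdc18, a secreted inhibitor-like protein of the mammary gland, stood at 123, 276 and 1878 CPM in ERI-R 1 to 3 and 3.55, 3.54 and 0.0747 CPM in PAC-R 1 to 3 (8.69, adjusted p = 0.00564, 5.98 without ERI-R 3 and 7.22 without PAC-R 3). Tlx1, a homeobox factor, stood at 22.5, 19.8 and 73.2 CPM in ERI-R 1 to 3 and 0, 0.337 and 0 CPM in PAC-R 1 to 3 (8.17, adjusted p = 0.000596, 6.96 without ERI-R 3 and 7.24 without PAC-R 3). Sncg, gamma-synuclein, had 2 counts in PAC-R against 2.82, 11.7 and 34.4 CPM in ERI-R, a ratio of 259 (95% counting interval 71.2 to 2141), and a fitted log2 fold change of 7.905, or 6.87 without ERI-R 3.

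Among the largest falls, Tnxb, a tenascin of the matrix, had 2 counts in ERI-R and 3.36, 4.55 and 29.5 CPM in PAC-R, a ratio of 242 (95% counting interval 66.7 to 2007), and a fitted log2 fold change of -7.03, or -5.69 without ERI-R 3. Aqp1, a water channel, stood at 1.83, 0.534 and 0.526 CPM in ERI-R 1 to 3 and 88.5, 39.02 and 129 CPM in PAC-R 1 to 3 (-6.34, adjusted p = 9.16e-05). Cavin3, a coat protein of caveolae, stood at 0.229, 0.305 and 0 CPM in ERI-R 1 to 3 and 16.2, 11.1 and 31.7 CPM in PAC-R 1 to 3 (-6.52, adjusted p = 0.000286). Gdnf, a neurotrophic ligand, stood at 0.229, 0.305 and 0 CPM in ERI-R 1 to 3 and 13.1, 13.99 and 18.3 CPM in PAC-R 1 to 3 (-6.18, adjusted p = 5.39e-05). Values without ERI-R 3 were -5.77 for Cavin3 and -5.46 for Gdnf, and for Aqp1 -5.76. Cck, Ildr2, Prl2c2, Iglon5, Dusp9, Nnmt and Qrfp were also among the 12 largest falls. Nnmt, a methyltransferase of nicotinamide, had 3 counts in ERI-R and was even in PAC-R at 6.14, 6.83 and 7.098 CPM.

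Few genes had no counts in one line and at least 1 CPM in every library of the other. In 17 genes, 14 of them with established names, every ERI-R library reached at least 1 CPM while PAC-R had no counts after rounding. Besides Mia, Lypd3, Kng2 and Crb3 they included Slc1a3, a glutamate transporter, at least 44.8-fold higher, Inha, the inhibin alpha subunit, at least 41.4-fold higher, and Tspan1, a tetraspanin of epithelia, at least 39.97-fold higher. None of the 17 reached 1 CPM in the mean of Control or VIN-R. In the other direction 4 genes had no counts in ERI-R and at least 1 CPM in every PAC-R library. These were Jam3, a junctional adhesion molecule, at least 15.7-fold lower in ERI-R, the signalling adaptor Shc2, the neuronal membrane protein Lingo2 and a predicted gene. These genes were described after the data were seen.

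The other groups place the difference on the ERI-R side. For 1904 of the 1982 genes called higher in ERI-R (96.1%), the mean log2 CPM of Control lay nearer to PAC-R than to ERI-R, and so it did for 2144 of the 2194 called lower (97.7%). VIN-R lay nearer to PAC-R for 99.3% and 98.8%. On a scale where PAC-R is 0 and ERI-R is 1, the median position of Control was 0.01 for genes called higher and 0.00 for genes called lower. Control lay nearer to PAC-R for 17 of the 18 junction genes called higher, and for all 13 mesenchymal and matrix genes called lower. The PAC-R values that define a call also define this position, so the counts are a description and carry no test.

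The difference was also followed in the libraries with and without macrophage RNA. The interaction, which asks whether ERI-R against PAC-R differs between them, gave 0 genes past the threshold with edgeR's quasi-likelihood test and 2857 genes (20.1%) at an unadjusted p under 0.05. The libraries without the RNA are single in each line, so this fit takes its spread from the others. In the 8 libraries with macrophage RNA 3287 genes were called. Of these, 3120 (94.9%) had the same sign in ERI-R 3 against PAC-R 3, which did not enter that fit, and 2648 (80.6%) also differed at least 2-fold there. Among genes not called, 61.8% had the same sign. Vim differed by -3.67 in log2 CPM with the RNA and by -7.67 without it, Zeb1 by -3.84 and -6.84, Cdh1 by 5.24 and 5.65, and Tubb2b by -4.58 and -5.96. ERI-R 3 was the library that moved values most: of the 158 named genes called, 62 came nearer to 0 by over 1.5-fold without it, and 28 without PAC-R 3. ERI-R 3 stood apart from ERI-R 1 and 2 both in its ribosomal protein share and in lacking macrophage RNA, and within this line these cannot be told apart. The shares without macrophage RNA were 15.98% in ERI-R 3, 8.52% in PAC-R 3, 6.50% in VIN-R 3 and 5.47% in Control 1. A difference in library quality was not tested.

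**Figure D4:**
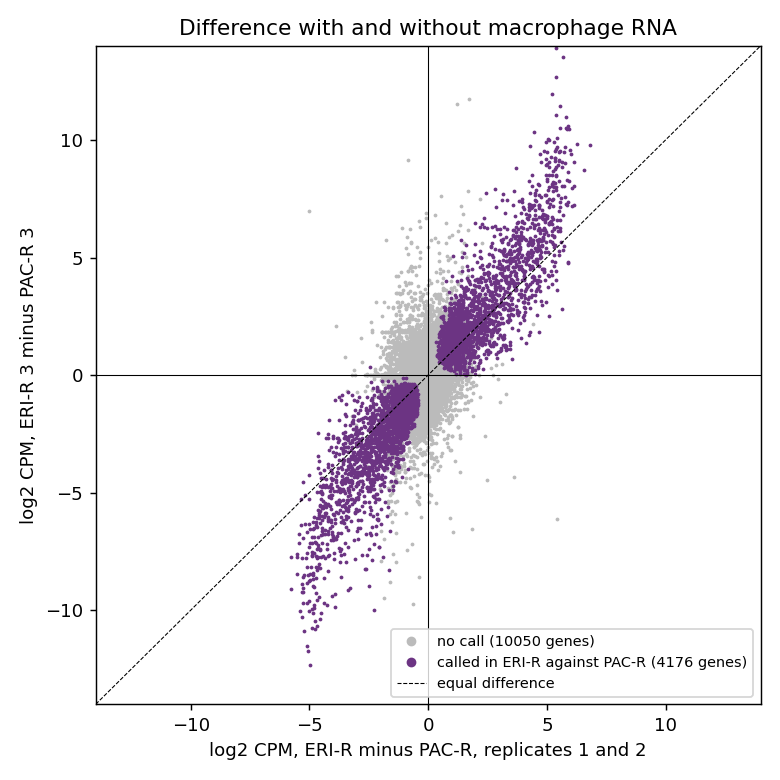
Difference in log2 CPM between ERI-R and PAC-R per gene in replicates 1 and 2, which contain macrophage RNA (x), and in replicate 3, which does not (y), for the 14226 genes tested; purple points are the 4176 called genes and the dashed line marks equal differences. Called genes lie mostly in the 2 quadrants of equal sign and spread more widely on the y axis than on the x axis. The libraries of both axes entered the fit that made the calls, so the shared sign is no separate test.

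Differences also clustered by position. Among 200 windows of 10 Mb with at least 20 genes, the share of genes higher in ERI-R was over 80% in 5 windows and under 20% in 7, against 46.3% over all genes in windows. In the first 50 Mb of chromosome 5, 154 of 184 genes (83.7%) were higher in ERI-R and 113 were called higher, with a median log2 fold change of 1.10. The next stretch, from 50 to 110 Mb, had 32.9% of 164 genes higher and a median of -0.41. From 140 Mb to the end of the chromosome, 76 of 80 genes were higher, with a median of 1.51. In these high stretches the median in PAC-R against Control was -0.00 and -0.04, and in ERI-R against Control it was 0.98 and 1.33. The replicate 3 pair alone gave 1.05 and 1.56. That pair entered the fit whose windows these stretches follow, so its values are a description and no separate test. Abcb1a lies in the first stretch with a log2 fold change of -3.76, and Abcb1b with 0.59.

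On chromosome 11, the window from 110 to 120 Mb had 85 of 97 genes (87.6%) higher, 67 of them called, with a median of 1.28. On chromosome 4, windows from 140 to 150 Mb and from 150 to 160 Mb had 13.1% and 12.5% of genes higher, with medians of -0.97 and -0.89. The other windows under 20% lay on chromosomes 10, 14 and 19. The medians over these whole chromosomes were -0.34, -0.37 and -0.42, against -0.16 on chromosome 4. Over whole chromosomes, 32.1% of genes on chromosome 5 were called higher, against 13.9% of all genes. Cdkn2a and Cdkn2b, with the adjacent Mtap, a salvage enzyme of adenine, were near 0 in PAC-R 3. For the first 2 this was not particular to PAC-R 3. Cdkn2a stood at 0.192 and 0.169 CPM in PAC-R 1 and 2 and at 0 in Control 1 and VIN-R 1 to 3. Cdkn2b was at 0 in Control 1 and VIN-R 3 too, which like PAC-R 3 held no macrophage RNA. Mtap, named after its values were seen, had means of 54.9 CPM in ERI-R and 3.54 CPM in PAC-R (log2 fold change 4.29, adjusted p = 0.0215). Its levels in Control and VIN-R are not given here. Some genes of the lists above lie in the stretches named here, Steap4 among them. The part of position in the calls of such list genes was not tested. DNA was not measured in these libraries, and a change in copy number was not tested.

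**Figure D5:**
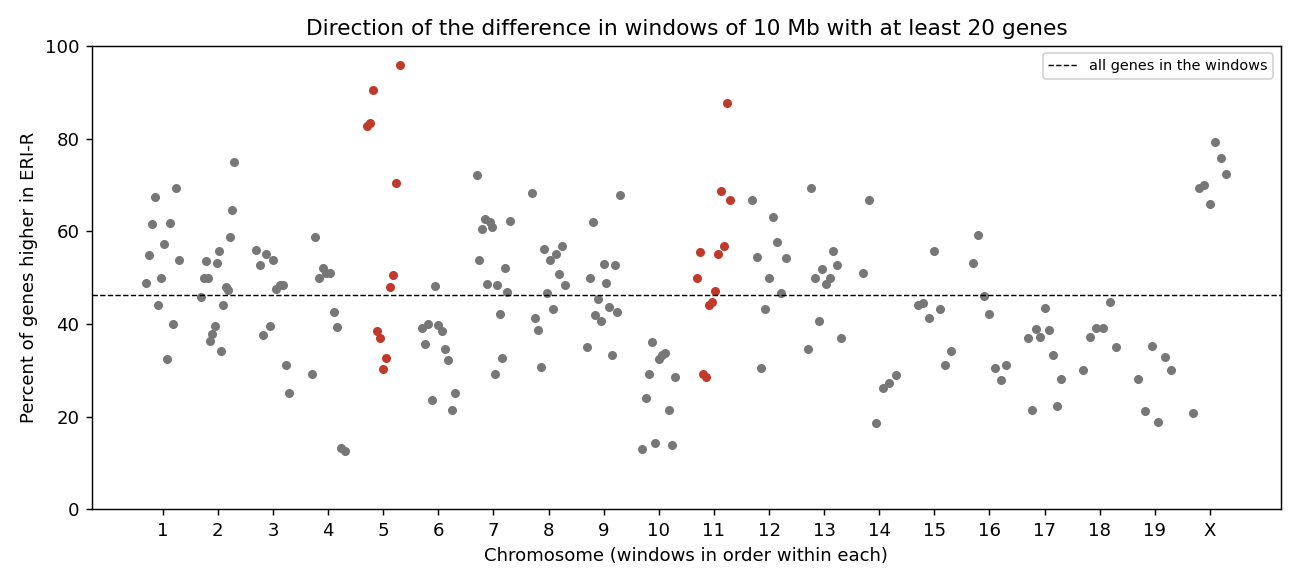
Percent of genes higher in ERI-R than in PAC-R in each 10 Mb window with at least 20 genes at 10 CPM or more, in order along each chromosome; windows of chromosomes 5 and 11 are red and the dashed line is the share over all genes in windows (46.3%). The 5 windows above 80% are 4 on chromosome 5 and 1 on chromosome 11.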

How the data were processed

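RNA of 12 PB3 libraries, 3 per line, was analysed from 1 table per library. The values are expected counts and TPM per gene (55573 genes), which the authors deposited in the column layout of RSEM, per the file headers. The submitters' processing notes name bcl2fastq 2.20.0.422, cutadapt 2.4, STAR 2.7.2b, RSEM 1.3.2 and GRCm38 without their roles, and for the annotation and any use of strand in counting these sources give nothing. TPM, as deposited, is normalised by the authors for gene length and library total, and was used only for shares within gene families.

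Rounding expected counts to whole numbers altered 15.3% of nonzero values. The filter filterByExpr left 14226 genes, which were scaled with TMM. The test was edgeR's quasi-likelihood test (edgeR 4.0.16, limma 3.58.1, R 4.3.3) on all 12 libraries, with group means and the presence of macrophage RNA (Lyz2 over 100 CPM) as terms, and an adjusted p under 0.05 (Benjamini-Hochberg) as the threshold. It left 7 residual degrees of freedom. The script was tested on simulated data first. CPM uses TMM-scaled sizes. Fold changes against a line without counts are lower bounds against 3 counts over the group, and intervals of ratios are exact 95% intervals that cover counting error only. DESeq2 1.42.0 was an alternative, as were other normalisations, filters, covariates, a replicate block and leaving out each library.

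The members and the 44 gene lists (986 symbols, 984 matched) were chosen with earlier results of these data known. Named genes are the 12 largest rises and 12 largest falls among called genes with at least 5 CPM and no overlap, for each list the 2 largest rises and falls of at least 1 CPM, and a fixed set of lineage, tubulin and transporter genes. Other list members given with values were chosen after their values were seen. Some genes that these rules name are not reported here.

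The replicate numbers in the labels are shared by the lines. The replicate block took these numbers to pair the libraries. Deviations from the group means of same-numbered ERI-R and PAC-R libraries correlated at 0.62, 0.61 and 0.76 across genes. The crosses of numbers 1 and 2 correlated at 0.57 and 0.70, as high as the pairs, and followed the macrophage RNA. These correlations therefore do not show a pairing by number.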

Additional observations from a re-analysis of the deposited data

How the results depend on the processing

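Without the covariate, 2667 genes were called, 1308 higher and 1359 lower. Lists whose calls this cut by over 1.5 times were microtubule-binding proteins (16 to 10), neighbours of Abcb1a (11 to 6), p53 (9 to 4), stress response (9 to 3), glycolysis (9 to 3), apoptosis (7 to 3), histone and DNA enzymes (7 to 4), simple keratins (5 to 2), tubulins and their enzymes (each 5 to 3), SWI/SNF and cholesterol genes (each 4 to 2) endothelial markers (2 to 1) and antigen presentation genes (1 to 0). The block moved no other list count by over 1.5 times than those given above and 2 to 1 in endothelial markers. With the replicate block in the 6 libraries 3215 of 13562 genes were called, 1642 higher and 1573 lower. Other settings gave between 3287 (the 8 libraries with macrophage RNA) and 5017 (DESeq2's Wald test), and leaving out 1 library gave 3026 (PAC-R 3) to 4349 (ERI-R 3, with 2490 higher and 1859 lower). None of the 4176 called genes changed sign under any setting that tested it. Of 158 called named genes 118 kept call and direction in all settings. Under the block 8 were no longer called, among them Bmf, Kmt2a, Hdac7 and Ndc80, given above, and S100a3, Eno2 and Dpf2 (adjusted p of 0.0501, 0.0552 and 0.187). The block changed no other call of a named gene.

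The interaction with macrophage RNA called 0 genes in all 12 libraries, 143 in the 6 libraries alone and 3 with DESeq2 size factors. It could not be fitted without ERI-R 3 or PAC-R 3. Of genes not called, Snai1 changed sign with the marker score as covariate (-0.055) and ranged from -0.13 to 0.23 over the libraries left out. Abcg2 ranged from -0.27 to 0.63 and Tubb5 from -0.34 to 0.00034, and Lyz2 became 0.34 with the score. The cause was not tested. At these depths a gene under 0.316 CPM in a library cannot be told from one with no counts, which bears on fold changes of genes near 0 in PAC-R 3 or ERI-R 3.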
